A study of Mus musculus with 6 samples.

Results

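Tetraspanins are small membrane proteins that organise other proteins of the cell surface into tetraspanin-enriched microdomains. They hold integrins, proteases and immunoglobulin-family receptors in place, sort cargo into endosomes and exosomes, and serve as marker proteins of extracellular vesicles. In tumors they are studied for adhesion, migration and vesicle release, and some members are restricted to blood cells. The genes examined are all protein-coding genes whose symbol is Tspan followed by a number, together with Cd9, Cd37, Cd53, Cd63, Cd81, Cd82, Cd151, Upk1a and Upk1b. The rule found 29 genes among the 54146 gene rows of the count tables, and no measured value was used to choose them.

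The libraries come from tumors of 4T1 cells, a mouse mammary carcinoma line, grown for 3 weeks at the orthotopic site, the mammary fat pad. The hosts were nude mice, which are without a thymus but keep natural killer, B and myeloid cells. The cells were either wild type (3 libraries) or Mki67-/- (3 libraries, titled Ki-67-KO). The labels give neither the number of knockout clones nor the age of the hosts, so a difference between clones cannot be told apart from one between genotypes. The labels do not say whether the replicates of a group are separate animals, and p-values measure only the spread between these libraries. Fewer cells of a type and less transcript per cell also cannot be told apart in these bulk samples.

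Gene counts ranged from 22081970 to 38399826 read pairs per library. Of all pairs, 31.2% to 33.9% were unmapped for wild-type tumors, against 30.8%, 54.6% and 52.7% for knockout replicates 1, 2 and 3. Mki67 itself was at 325 to 395 CPM (read counts scaled to library size, with TMM factors) in wild-type and at 98.7 to 139 CPM in knockout libraries, in the direction of the labels. Markers of some other cell types differed as well. Adipocyte markers summed to 50.2 to 85.0 CPM in wild-type and 189 to 471 CPM in knockout libraries. Endothelial markers overlapped between the groups, with sums of 198 to 278 and 192 to 255 CPM, and 1 of 6 was called, as higher. Fibroblast markers summed to 2349 to 2929 and 3719 to 7674 CPM. Of the 6 fibroblast markers 4 rose, and the collagen genes Col1a1 and Col3a1 made up most of the sum, while the receptor gene Pdgfra fell by 0.68 on the log2 scale. Of the 29 tetraspanin genes, 27 passed the filter on low counts. The exceptions, Tspan10 and Upk1b, had at most 10 counts in any library.

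Between the groups, 11 tetraspanin genes were lower and 5 higher in knockout tumors (edgeR, adjusted p under 0.05 over 19900 genes), and 11 were not called. Over all genes tested, 36% were called, 18.4% lower and 17.6% higher. Among genes with at least 1 CPM in 3 libraries the called share was 44.6%. The median log2 fold change (knockout minus wild type) was -0.25 over the 27 tested members and 0.05 over all tested genes, and the median absolute change was 0.46 against 0.42. The libraries of the groups did not overlap for 18 members, where the share over all genes was 50.5%. Changes of at least 2-fold were called for 4 lower members (5.16% of all genes) and 1 higher member (9.48%). The number lower was 10 to 12 when each library was left out in turn. The number higher was less stable, at 1 without wild-type replicate 1 or 2, at 2 without wild-type replicate 3, at 3 without knockout replicate 2 or 3, and at 3 with DESeq2.

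**Figure D1:**
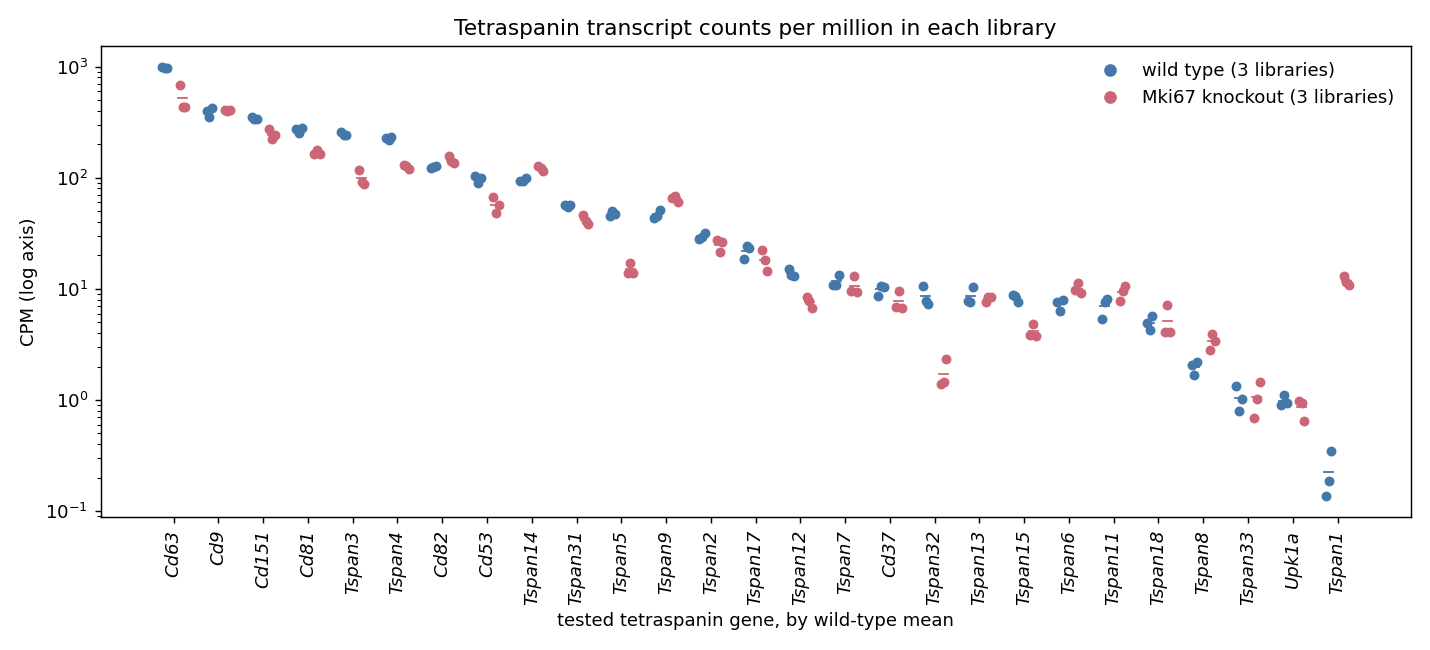
CPM (log axis) of the 27 tested tetraspanin genes in each library, placed along the axis by wild-type mean for display only, since CPM is not scaled by gene length, with 1 point per library and a line at each group mean. The Cd63 points fall from 967 to 983 CPM to 428 to 686 CPM, and Tspan1 rises from under 0.4 CPM to 10.8 to 13.1 CPM.

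The bases before the start site are shown for the 3 genes with the largest fold changes, Tspan1, Tspan32 and Tspan5. They are the 250 bases upstream of the RefSeq start, 5′ to 3′ on the strand of the gene, build GRCm38.p6. Capitals mark matches to GGAAG, the core of Ets-family sites, and to CACCTG, an E2-box, on either strand. The window of Tspan1 is chr4:116167599-116167848 (minus strand), that of Tspan32 chr7:143004796-143005045 (plus strand) and that of Tspan5 chr3:138741958-138742207 (plus strand).
Tspan1: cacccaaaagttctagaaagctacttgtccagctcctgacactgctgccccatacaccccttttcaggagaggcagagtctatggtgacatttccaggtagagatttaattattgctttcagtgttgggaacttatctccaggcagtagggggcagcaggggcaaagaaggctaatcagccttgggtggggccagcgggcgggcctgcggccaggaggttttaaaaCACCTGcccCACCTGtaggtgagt
Tspan32: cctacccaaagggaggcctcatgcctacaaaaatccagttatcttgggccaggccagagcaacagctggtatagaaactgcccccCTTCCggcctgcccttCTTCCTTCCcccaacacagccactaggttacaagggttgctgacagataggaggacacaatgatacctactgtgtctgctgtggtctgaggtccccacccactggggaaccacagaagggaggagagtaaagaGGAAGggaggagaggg
Tspan5: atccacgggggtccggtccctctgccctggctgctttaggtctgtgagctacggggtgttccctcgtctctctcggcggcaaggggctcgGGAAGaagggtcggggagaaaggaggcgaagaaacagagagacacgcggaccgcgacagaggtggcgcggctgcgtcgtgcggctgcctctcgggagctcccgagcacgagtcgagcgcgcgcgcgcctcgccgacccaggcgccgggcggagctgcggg

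These windows differ in composition. CG dinucleotides numbered 3 before Tspan1, 1 before Tspan32 and 33 before Tspan5, against a median of 6 over 32851 promoter windows of this length. The Tspan1 window holds 2 CACCTG matches close to its start, a motif found in 17.2% of all windows, and no GGAAG. The Tspan32 window holds 4 GGAAG matches, a motif found in 64.1% of all windows. The shares count windows with at least 1 match, not windows with as many matches as these. The motifs were chosen after the values and these sequences were seen, so the shares give no test. A match is a description of letters only.

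**Figure D2:**
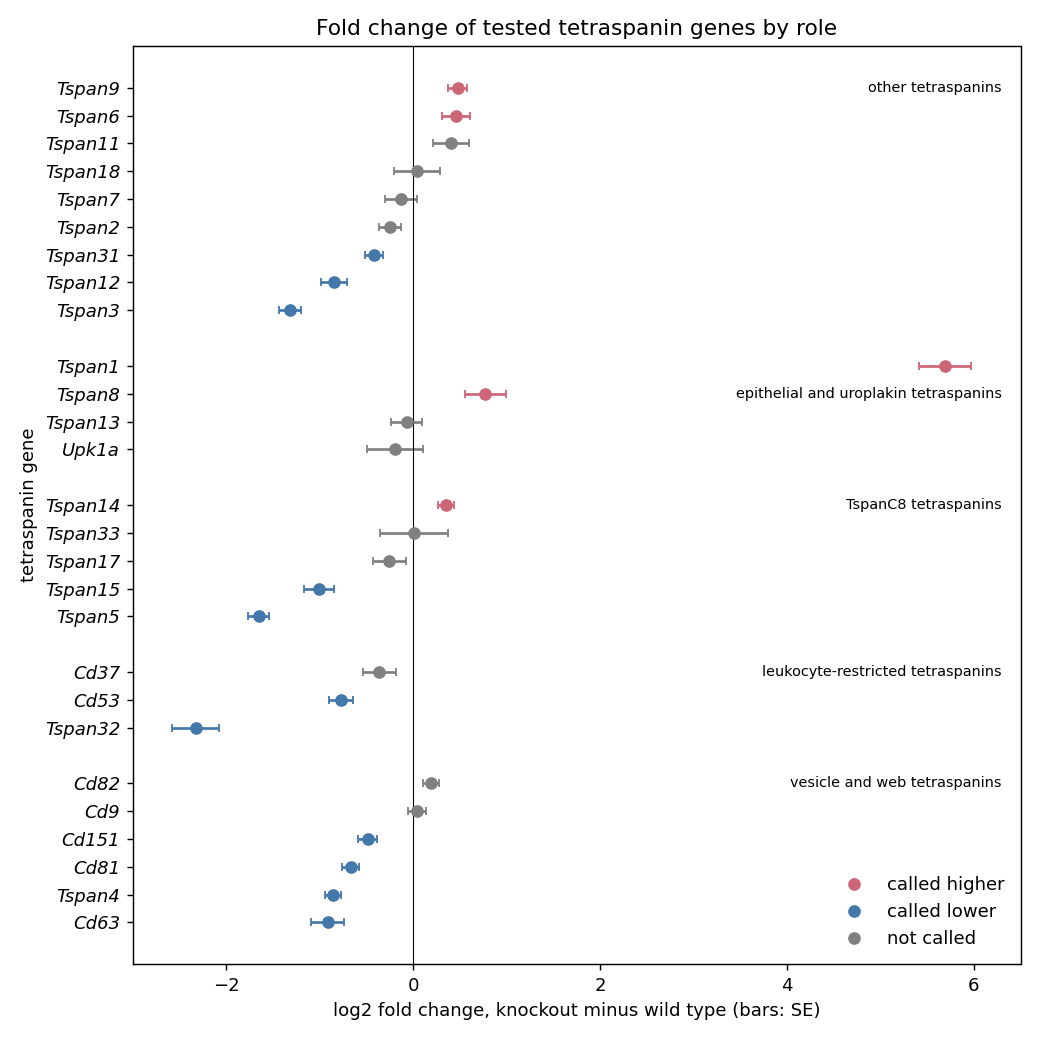
Log2 fold change (knockout minus wild type, bars: standard error) of the 27 tested tetraspanin genes, grouped by role and coloured by the edgeR call. Tspan1 stands at 5.69, and the lowest values are those of Tspan32 at -2.33 and Tspan5 at -1.66.

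The 6 genes listed as tetraspanins of vesicles and of the integrin web were lower or not called. Of these, 4 fell and none rose, where 18.4% of all tested genes fell and 17.6% rose. The list was drawn up with earlier results of these data known. Tspan8, a known exosome component, and Tspan6, of endosomal sorting, stand in other lists. Both were called higher, with log2 fold changes of 0.77 and 0.46. Cd63, the late-endosome and exosome tetraspanin, was at 983, 967 and 969 CPM in the wild-type libraries and at 686, 428 and 435 CPM in knockout replicates 1, 2 and 3. All knockout libraries lay below all wild-type ones, and knockout replicate 1 was the highest of them. Its log2 fold change was -0.91 (SE 0.18, edgeR adjusted p = 0.0048). Knockout replicate 1 is also the only knockout library with under 40% unmapped pairs. With the unmapped share as a covariate the log2 fold change was -0.56 (edgeR adjusted p = 0.00257).

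Tspan4, a tetraspanin of migrasomes and vesicles, was at 227, 220 and 234 CPM in wild-type and at 129, 128 and 119 CPM in knockout libraries. The spread within each group was small beside the gap between them, and the log2 fold change was -0.86 (SE 0.08, edgeR adjusted p = 0.000129). Of its exonic bases, 13.4% lie in exons of Chid1, where read pairs are not counted for either gene. Cd81, a co-receptor component and exosome marker, was at 271, 252 and 279 CPM in wild-type and at 164, 176 and 164 CPM in knockout libraries (log2 fold change -0.67, SE 0.09, edgeR adjusted p = 0.000626). Cd151, which binds laminin-binding integrins, was at 352, 335 and 340 CPM against 271, 221 and 240 CPM (log2 fold change -0.49, SE 0.10, edgeR adjusted p = 0.00592). Neither gene had overlapping groups.

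Cd9 and Cd82, which bind integrins, growth factor receptors and immunoglobulin-family partners, were not called. Cd9 was at 396, 355 and 420 CPM in wild-type and at 405, 397 and 402 CPM in knockout libraries, with all knockout values inside the wild-type range. Its log2 fold change was 0.04 (SE 0.09, edgeR adjusted p = 0.749), and the sign changed under several alternatives. Cd82 was at 123, 125 and 128 CPM against 155, 140 and 135 CPM. The groups did not overlap, though the difference did not pass (log2 fold change 0.19, SE 0.09, edgeR adjusted p = 0.117). Cd82 passed as higher with library totals alone (edgeR adjusted p = 0.0388) and with the unmapped share as a covariate (edgeR adjusted p = 0.0274). It also passed among genes with at least 1 CPM in 3 libraries (edgeR adjusted p = 0.0409).

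Levels of different members were compared only per kilobase of exon. In wild-type tumors the order began with Cd63 at 264 CPM per kb ± 2.32 (SD, n = 3), Cd9 at 191 ± 16.0, Cd151 at 125 ± 3.14, Tspan4 at 104 ± 3.23 and Cd81 at 92.9 ± 4.80. Tspan3 at 57.7 ± 1.69 and Cd53 at 56.0 ± 4.43 CPM per kb did not differ beyond their spread. In knockout tumors Cd9 came first at 196 CPM per kb ± 1.81, ahead of Cd63 at 140 ± 39.8 and Cd151 at 89.0 ± 9.24. Cd81 at 58.3 ± 2.50 and Tspan4 at 57.6 ± 2.49 CPM per kb did not differ beyond their spread. The summed level of the 29 members was 1014 to 1077 CPM per kb in wild-type and 724 to 844 CPM per kb in knockout libraries. Of that sum, Cd63 made up 24.4% to 25.9% in wild-type and 15.9% to 22.1% in knockout libraries, and Cd9 17.1% to 19.1% and 23.5% to 27.2%. Cd63 exceeded Cd9 in each wild-type library and lay below it in each knockout library. With the longest transcript as the length, the order of Cd63 and Cd9 was the same in both group means. Their wild-type means then lay closer, at 336 and 318 CPM per kb, and their order did not hold in every wild-type library. Cd81 and Tspan4 changed places in wild-type tumors with this length. Tspan3 and Cd53 then lay apart in wild-type tumors, at 116 and 56.0 CPM per kb, with Cd82 between them at 68.8. In knockout tumors Cd81 and Tspan4 then lay apart as well, at 105 and 85.6 CPM per kb. The near-equal levels of these pairs thus held only with the exon union.

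**Figure D3:**
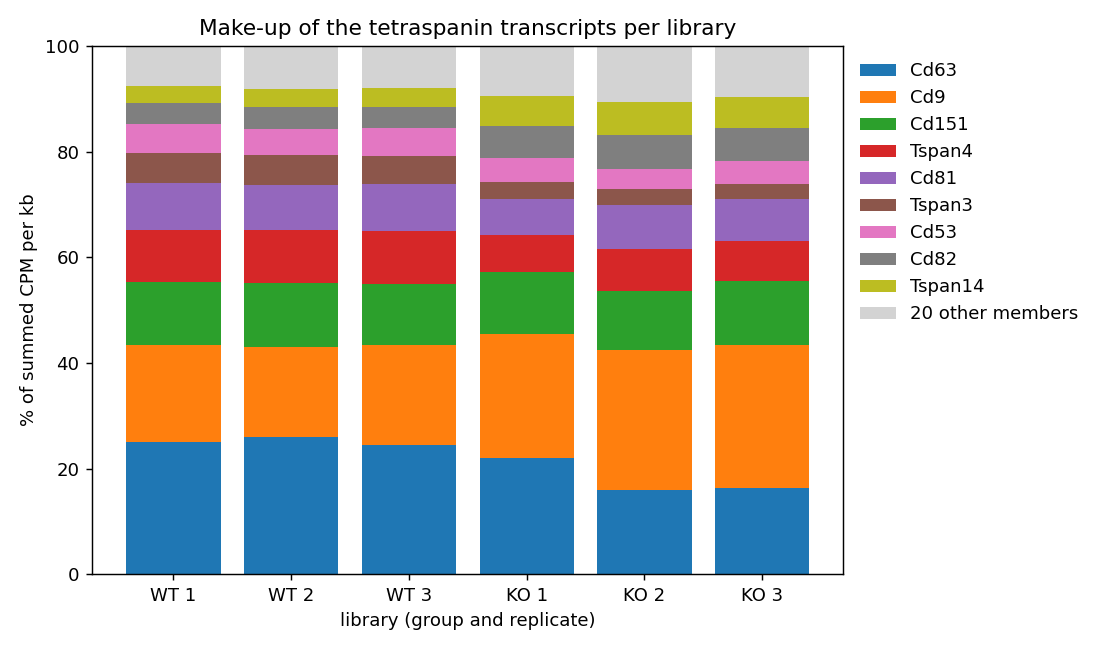
Share of each abundant tetraspanin gene in the summed CPM per kilobase of all 29 members (percent), per library, with the remaining members in light grey. The Cd63 share is largest in the wild-type libraries at 24.4% to 25.9%, and the Cd9 share is largest in the knockout libraries at 23.5% to 27.2%.

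TspanC8 tetraspanins, named for the cysteines of their large extracellular loop, bind the sheddase ADAM10 and direct its exit from the endoplasmic reticulum and its choice of substrate. Of the 6 genes 5 were tested, and they moved in different directions, 2 lower and 1 higher. Of all tested genes, 18.4% were lower and 17.6% higher. Tspan5 was at 45.1, 49.8 and 47.3 CPM in wild-type and at 14.0, 17.2 and 14.0 CPM in knockout libraries, which is 3.15-fold lower (log2 fold change -1.66, SE 0.11, edgeR adjusted p = 2.35e-05). Tspan15, a TspanC8 member linked to cadherin shedding, was at 8.78, 8.63 and 7.67 CPM against 3.84, 4.86 and 3.79 CPM (log2 fold change -1.01, SE 0.16, edgeR adjusted p = 0.00188). For both genes every knockout library lay below every wild-type library.

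Tspan14 moved the other way. It was at 93.2, 92.8 and 99.7 CPM in wild-type and at 127, 123 and 114 CPM in knockout libraries, with no overlap (log2 fold change 0.35, SE 0.08, edgeR adjusted p = 0.0131). This call was lost without wild-type replicate 1, 2 or 3 (edgeR adjusted p = 0.112, 0.110 and 0.0732) and with DESeq2 (adjusted p = 0.0624). Tspan17 at 18.5 to 24.2 CPM in wild-type and 14.5 to 22.5 CPM in knockout libraries, and Tspan33 at 0.795 to 1.33 and 0.683 to 1.46 CPM, overlapped between the groups and were not called. Tspan10 had 0 to 2 counts in each wild-type library and at most 3 in each knockout library.

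Adam10 itself fell, from 355, 344 and 385 CPM to 201, 170 and 202 CPM (log2 fold change -0.92, SE 0.10, edgeR adjusted p = 0.000265). Per kilobase, Tspan14 was the most abundant TspanC8 gene in every library. Its share of the summed TspanC8 level was 60.9% to 65.4% in wild-type and 74.9% to 79.0% in knockout libraries, while that of Tspan5 was 10.8% to 11.7% and 2.94% to 3.86%. The summed TspanC8 level overlapped, at 53.8 to 59.1 and 54.5 to 64.2 CPM per kb. In CPM, the ratio of Tspan14 to Adam10 was 0.259 to 0.270 in wild-type and 0.565 to 0.721 in knockout libraries. Of 12 genes of ADAM10 substrates, 6 rose and 3 fell, beside 17.6% and 18.4% of all tested genes. Cdh1, the epithelial cadherin, rose (log2 fold change 2.02), as did Cx3cl1, a membrane-bound chemokine (1.10), and L1cam, a cell adhesion molecule (1.16). Cdh2, another cadherin gene, rose by 1.58 from a low level, with group means of 0.869 and 2.62 CPM. The receptor genes Axl (-1.07), Il6ra (-1.27) and Notch2 (-0.47) fell.

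**Figure D4:**
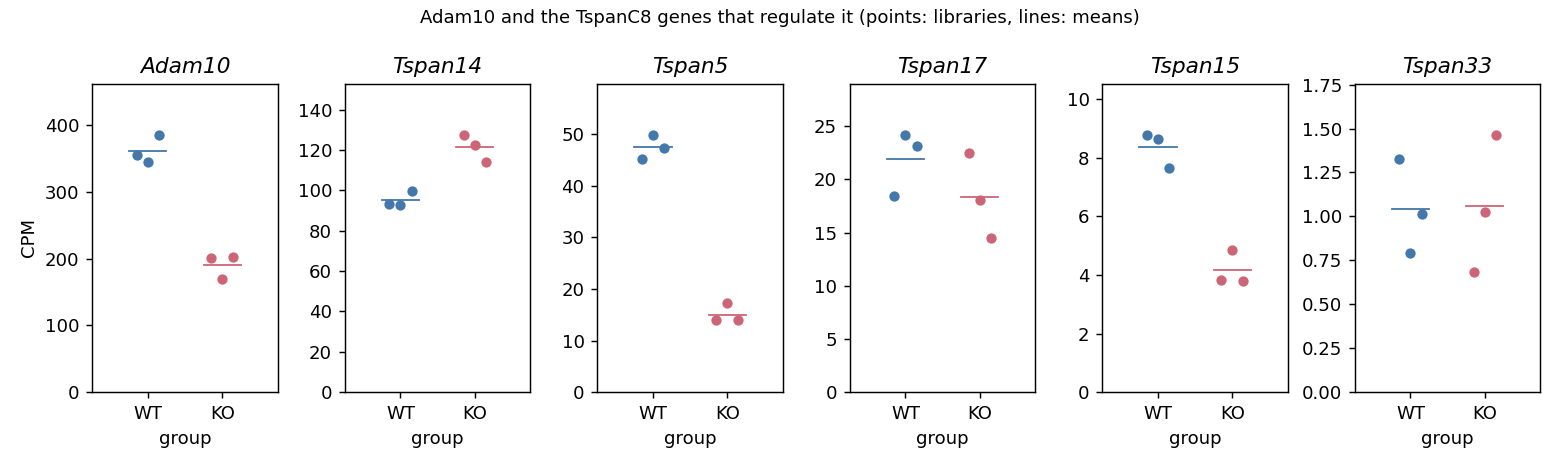
CPM of Adam10 and of the 5 tested TspanC8 genes in each library (points) with group means (lines), each panel on its own axis from 0. Adam10, Tspan5 and Tspan15 are lower in all knockout libraries, Tspan14 is higher, and Tspan17 and Tspan33 overlap.

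The tetraspanins restricted to blood cells were lower for 2 of 3 members, where 18.4% of all tested genes were lower. Tspan32, expressed in blood cells, had the largest fall of the family. It was at 10.7, 7.76 and 7.38 CPM in wild-type and at 1.40, 1.46 and 2.32 CPM in knockout libraries, with no overlap (5.01-fold lower, log2 fold change -2.33, SE 0.25, edgeR adjusted p = 0.000237). Its antisense partner Tspan32os covers 4.35% of its exonic bases, and the counts do not separate strands. Cd53, a tetraspanin of most leukocytes, was at 104, 89.2 and 98.8 CPM against 66.3, 48.1 and 56.4 CPM (log2 fold change -0.77, SE 0.13, edgeR adjusted p = 0.00218).

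Cd37, best known from B cells, was at 8.59, 10.6 and 10.5 CPM in wild-type and at 6.90, 9.56 and 6.67 CPM in knockout libraries. Knockout replicate 2 lay within the wild-type range and the gene was not called (log2 fold change -0.36, SE 0.18, edgeR adjusted p = 0.142). Without knockout replicate 2 it passed (log2 fold change -0.59, edgeR adjusted p = 0.014).

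Markers of several leukocyte types fell with these genes. All 6 general leukocyte markers fell, with a median log2 fold change of -1.09, and their summed level was 733 to 782 CPM in wild-type and 336 to 388 CPM in knockout libraries. Of 8 macrophage markers 7 fell, and their sum was 4564 to 5315 CPM against 723 to 849 CPM. Lyz2 made up most of the wild-type sum and had the largest fall of this list. Its mean went from 3494 to 317 CPM (log2 fold change -3.46). The other called macrophage markers fell less, with log2 fold changes of -2.35 to -1.24, and 1 was not called. All 5 tested natural killer cell markers fell, with sums of 35.0 to 47.6 against 1.22 to 2.19 CPM. Not all leukocyte lists moved this way. Of 6 neutrophil markers 3 rose and none fell, with sums of 228 to 276 and 312 to 436 CPM. T cell markers summed to 3.23 to 3.95 and 5.86 to 7.74 CPM, with 1 of 4 tested markers higher, the receptor chain gene Trac, and none lower. B cell markers summed to 2.96 to 4.68 CPM over all 6 libraries, and only 3 of the 7 had enough counts to be tested. Of these, Cd22 was lower (log2 fold change -1.32), Pax5 was higher (1.29) and Cd79a was not called. Relative to Ptprc, the common leukocyte antigen, Tspan32 was at 0.0856 to 0.131 in wild-type and 0.0342 to 0.0539 in knockout libraries, Cd53 at 1.08 to 1.27 and 1.31 to 1.62, and Cd37 at 0.105 to 0.129 and 0.155 to 0.284. The part of leukocyte content in these falls was not tested.

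**Figure D5:**
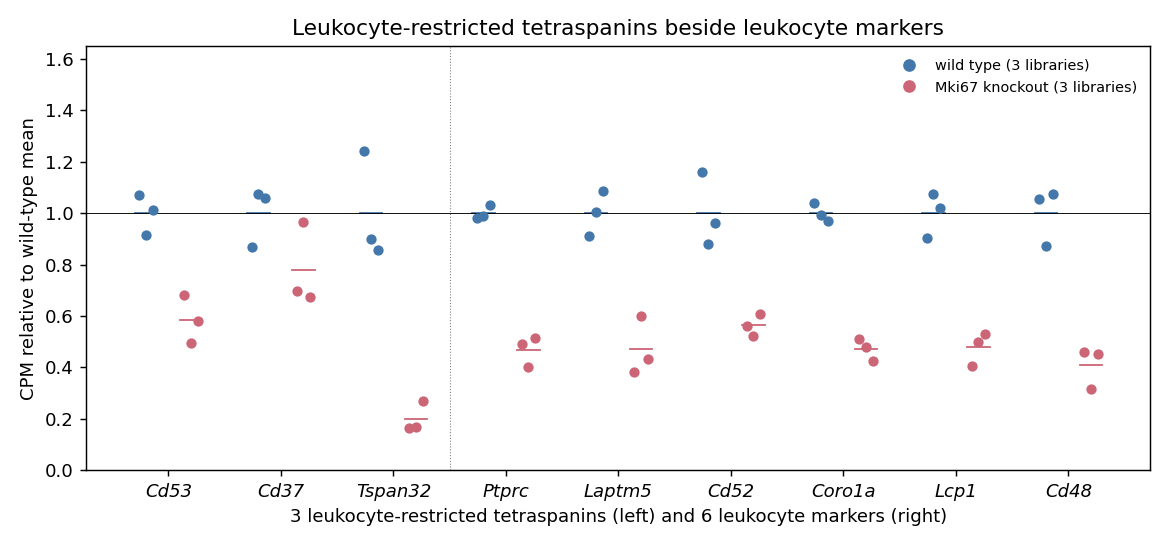
CPM relative to the wild-type mean of each gene, for 3 leukocyte-restricted tetraspanin genes (left) and 6 leukocyte markers (right), with 1 point per library and lines at group means. Tspan32 lies lowest in the knockout libraries, and the knockout values of Cd37 reach into the wild-type range.

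Tetraspanins of epithelia included the one large rise. Tspan1 (ENSMUSG00000028699, GRCm38 chromosome 4, 116161869 to 116167601, minus strand), a tetraspanin of secretory and other epithelia, was at 0.138, 0.185 and 0.347 CPM in wild-type libraries, from 5, 7 and 13 counts. In knockout libraries it was at 13.1, 11.5 and 10.8 CPM. The gene passed the filter through the knockout group, and its wild-type level rests on few counts. The fitted change was 51.7-fold (log2 fold change 5.69, SE 0.28, edgeR adjusted p = 4.15e-06). Over the alternatives it ranged from 5.42 to 6.10 on the log2 scale.

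Tspan8, another epithelial tetraspanin and a known exosome component, was at 2.07, 1.67 and 2.22 CPM in wild-type and at 2.83, 3.95 and 3.40 CPM in knockout libraries, without overlap (log2 fold change 0.77, SE 0.22, edgeR adjusted p = 0.0245). The call was lost without any one of wild-type replicates 1, 2 and 3 or knockout replicates 2 and 3 (edgeR adjusted p of 0.0549 to 0.124), and with the unmapped share as a covariate (edgeR adjusted p = 0.144). Tspan13 at 7.57 to 10.4 and 7.58 to 8.48 CPM overlapped and was not called. The uroplakin Upk1a, a urothelial plaque protein, was at 0.911 to 1.11 and 0.645 to 0.976 CPM and was not called either. Upk1b had 2 to 5 counts in the wild-type libraries and 0 to 10 in the knockout libraries, and its uroplakin partners Upk2, Upk3a and Upk3b were not tested because of low counts. Epithelial markers moved with Tspan1. Of 10 such markers 9 rose, where 17.6% of all tested genes rose. Their summed level was 2923 to 3030 CPM in wild-type and 6122 to 6541 CPM in knockout libraries. Of 8 keratinocyte markers 8 rose, with sums of 79.2 to 138 and 739 to 1696 CPM. Krt14 made up most of the knockout sum, at 815, 1009 and 630 CPM in replicates 1, 2 and 3. Each of the 8 markers was highest in knockout replicate 2, and the groups overlapped for Krt10. The part of epithelial and keratinocyte markers in the rise of Tspan1 was not tested.

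Among the remaining 9 members, 3 fell and 2 rose, beside 18.4% and 17.6% of all tested genes. Tspan3, a widely expressed tetraspanin, was at 255, 241 and 244 CPM in wild-type and at 117, 91.4 and 87.9 CPM in knockout libraries (2.50-fold lower, log2 fold change -1.32, SE 0.12, edgeR adjusted p = 9.34e-05). Tspan12, which enhances Norrin signalling through the receptor Fzd4, was at 15.0, 13.2 and 13.0 CPM against 8.46, 7.74 and 6.67 CPM (log2 fold change -0.85, SE 0.14, edgeR adjusted p = 0.00218). Both had groups well apart. Fzd4 rose by 0.55 on the log2 scale, and the ligand gene Ndp had too few counts to be tested. Tspan31, which lies beside Cdk4 and shares 29.2% of its exonic bases with it, fell by 0.42 (edgeR adjusted p = 0.0097), a call lost without wild-type replicate 1 (edgeR adjusted p = 0.0532) and with the share of pairs outside exons as a covariate (edgeR adjusted p = 0.0726).

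Tspan9, a tetraspanin known from platelets, was at 43.7, 44.8 and 51.6 CPM in wild-type and at 65.8, 68.6 and 60.5 CPM in knockout libraries (log2 fold change 0.48, SE 0.10, edgeR adjusted p = 0.00679). It was not called without wild-type replicate 1 or 2 (edgeR adjusted p = 0.0722 and 0.0626). Platelet and megakaryocyte markers summed to 50.4 to 74.5 CPM in wild-type and 14.0 to 28.3 CPM in knockout libraries, opposite to Tspan9. Pf4 made up most of this sum, with means of 54.7 and 14.3 CPM. Of 4 tested markers 3 fell, and Itga2b was not called. Tspan6, which acts in endosomal sorting, was at 7.59, 6.33 and 7.94 CPM against 9.69, 11.2 and 9.12 CPM (log2 fold change 0.46, SE 0.15, edgeR adjusted p = 0.042). This was the least stable call of the family, lost under 11 of 17 alternatives, among them those without any one wild-type replicate and without knockout replicate 2 or 3 (edgeR adjusted p of 0.0633 to 0.213). Tspan2, Tspan7, Tspan11 and Tspan18, whose group means ranged from 4.97 to 29.6 CPM, were not called. Tspan2 passed without knockout replicate 1 (edgeR adjusted p = 0.0448).

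Genes of tetraspanin partners moved both ways. Of 21 tested surface partners, 7 rose and 7 fell, with a median log2 fold change of 0.15. Of all tested genes, 17.6% rose and 18.4% fell. Epcam and Cldn7, epithelial adhesion and junction proteins found in complexes with Cd9 and Tspan8, rose by 2.94 and 2.01 on the log2 scale. Itgb4, the laminin-binding integrin chain held by Cd151, went from 307, 332 and 348 CPM to 543, 797 and 669 CPM (log2 fold change 1.03, edgeR adjusted p = 0.000891), while its partner chain Itga6 fell by 0.37. Itga3, the other Cd151-bound chain, was at 1044 CPM ± 14.2 and 1065 CPM ± 199 (SD, n = 3 each) and was not called. Adam17, a sheddase related to Adam10, went from 156, 163 and 162 CPM to 109, 97.8 and 103 CPM (log2 fold change -0.63, edgeR adjusted p = 0.00071). Vcam1, an adhesion receptor placed in tetraspanin microdomains of endothelium, fell by 2.76, while of 6 endothelial markers 1 rose and none fell. Ptgfrn, a direct partner of Cd9 and Cd81, fell by 0.52. Igsf8, the related partner, was at 234 and 236 CPM and was not called.

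Of 13 tested genes of the vesicle machinery, 2 rose, 3 fell and 8 were not called, a called share near the 36% of all genes. Sdcbp, the syntenin adaptor that links Cd63 to exosome budding, was at 482, 423 and 465 CPM in wild-type and at 340, 216 and 256 CPM in knockout libraries (log2 fold change -0.75, edgeR adjusted p = 0.0068). Knockout replicate 1 was the highest of the knockout libraries, as it was for Cd63. Rab27b, a GTPase of vesicle secretion, rose by 0.92, and Vps4a, the ESCRT disassembly ATPase, by 0.46. Rab35 and Stam fell by 0.32 and 0.42. The retinal tetraspanins that the symbol rule leaves out, Rom1 and Prph2, were not called and not tested, respectively. Hgs is left without a value here: 97.2% of its exonic bases also carry another identifier of the same name in the annotation, and it was at 0 to 0.107 CPM.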

How the data were processed

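RNA-seq libraries of 4T1 tumors were compared, 3 wild type and 3 Mki67 knockout, with groups and replicate numbers taken from the titles. The deposited tables hold raw counts, 1 row per gene, and the submitters' processing notes name STAR 2.6.0c, FastQC, DESeq2 and GRCm38. The first 4 rows name no gene and were left out (besides the unmapped pairs, 3.12% to 4.39% of all pairs were multimapping and 9.24% to 18.9% of uniquely mapped pairs lay outside exons); the unstranded column was used because both strands took near-equal shares (50.1% to 50.2% in the first). Symbols and positions came from GENCODE M21 (54079 of 54146 identifiers matched), and promoter windows from RefSeq GRCm38.p6 (27 of 29 members).

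Counts were tested with edgeR 4.0.16 (filterByExpr, TMM, glmQLFit and glmQLFTest, without robust estimation) and Benjamini-Hochberg adjustment over 19900 genes. Standard errors were taken from the fold change and its F statistic. The fitting step was tested on simulated data, where p-values of unchanged genes were calibrated. Where each gene kept its own dispersion, however, the share of false calls exceeded the threshold. A first pass condition on that share failed and was replaced by conditions on calibration and recovery. A robust fit and DESeq2 1.42.0 are among the alternatives.

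The text names every member and, from each other list, up to 6 genes with the smallest p. Itga6, Itga3, Igsf8, Ptgfrn, Fzd4, Ndp, Notch2, Hgs and the uroplakin partners were added after their values were seen, as partners of named members or to complete a count. The promoter motifs were picked after the sequences were seen; TGANTCA (6.75% of windows) and TATAAA (12.4%) were also searched, and a general E-box and a Grainyhead-like motif were tried and dropped. Members, lists and tests were chosen with earlier results of these data known. The limit at a count of 0 is 3 counts (0.0781 to 0.136 CPM by library) and covers counting error only.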

Additional observations from a re-analysis of the deposited data

How the results depend on the processing

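The alternatives were DESeq2, RLE factors, library totals alone, no filter, a stricter filter, a stranded column, a robust fit, the replicate number as a block, either the unmapped or the outside-exon share as a covariate, only libraries under 40% unmapped pairs (which leaves 1 knockout library, assumed to vary like the others) and each library left out. The number of tetraspanin genes higher was 2 without the filter, 3 with DESeq2 and 1 to 5 with a library left out. The median log2 fold change of all genes was 0.26 without the filter and 0.05 with it. The share of all genes called was 17.4% without the filter and 19.3% to 43.3% with a library left out. With the replicate block 4 members were higher and 11 lower. Same-numbered libraries deviated with correlations of 0.14, -0.03 and -0.15. These values show no pairing by number, but with 3 libraries per group they cannot exclude it. The median level per length was 6.60 CPM per kb with the longest transcript and 6.22 with the exon union. Sign changes occurred only among members not called. Cd9 was at -0.044 without the filter, -0.039 in the stranded column, -0.011 with only libraries under 40% unmapped, -0.019 in DESeq2 and -0.049 to 0.043 with a library left out. Tspan13 was at -0.18 to 0.033 with a library left out, Tspan17 at 0.0051 with the unmapped share, and Tspan7 at 0.10 with the share outside exons. Tspan18 was at -0.026 without the filter, -0.35 with only libraries under 40% unmapped, -0.27 with the unmapped share, -0.0083 in DESeq2 and -0.33 to 0.18 with a library left out. Tspan33 was at -0.084 without the filter, -0.011 with the block, -0.67 with only libraries under 40% unmapped, -0.54 and -0.23 with the unmapped share and the share outside exons, -0.055 in DESeq2 and -0.30 to 0.24 with a library left out. The cause was not tested. Depth limits Tspan10 and Upk1b, which could not be tested.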

Other observations

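Of the 11 tetraspanin genes that were lower, 4 lie near the end of chromosome 7, beyond Mki67. Cd151 and Tspan4 start 5.78 and 5.79 Mb from it, and Tspan32 and Cd81 7.32 and 7.36 Mb. Of 120 other tested genes beyond Mki67 on this chromosome, 30 were lower and 20 higher (25% lower, median log2 fold change -0.07). Before Mki67 26.9% of 1387 genes were lower (median -0.16), and on the other chromosomes 17.6% of 18365 (median 0.06). Within 1 Mb of Cd151 and Tspan4 the median over 56 genes was -0.17, and around Tspan32 and Cd81 it was 0.09 and 0.10 over 31 and 30 genes. Around Tspan9 and Tspan11, which are neighbours on chromosome 6, the medians over 34 genes each were 0.36 and 0.29, beside 0.48 and 0.40 for the genes themselves.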
